A study of Mus musculus with 10 samples.

Results

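The genes described are 33 that mouse liver uses to burn fatty acids, to make ketone bodies and to respond to the nuclear receptor PPARalpha, among them Ppara itself. They were chosen by name, as the probe sets of the array whose annotated gene symbol is one of the 33. Of these, 32 had a probe set of their own, and all 32 were among the 12855 genes tested. The remaining gene, Cyp4a10, had only a probe set that its annotation shares with Cyp4a31, and that signal is given as shared. RNA of whole livers was measured on Affymetrix Mouse Genome 430 2.0 arrays, where a probe set is a group of short probes that read 1 transcript near its end. The mice were males of C57BL/6 NHsd, a laboratory inbred strain.

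The 3 groups came from 10 livers. In the Rab5 siRNA group (4 arrays), the tail vein injection held lipid nanoparticles with small interfering RNAs (siRNAs) directed at all Rab5 genes, which encode small GTPases of early endosomes. In the control siRNA group (4 arrays), the nanoparticles held an siRNA that the titles call scrambled and the design text calls a luciferase control. In the PBS group (2 arrays), phosphate-buffered saline was given with no nanoparticles. The siRNA dose was 1.5 mg/kg and livers were taken on day 5. Unlike a Cre line, this knockdown has no promoter that limits it to 1 cell type. The labels number the livers without saying that each is from a separate mouse, so the p-values reflect only how much these samples spread.

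PPARalpha binds DNA as a pair with the retinoid X receptor, at elements called DR1 made of a repeated half-site with a free base between the copies. Fatty acids reaching the liver in fasting activate it, and it raises transcription of genes for fatty acid transport, oxidation and ketone body formation. In mitochondria, the carnitine shuttle carries fatty acyl groups inside. A cycle of dehydrogenation, hydration, a second dehydrogenation and thiolysis then shortens them to acetyl-CoA, from which hepatocytes make ketone bodies for other organs. Peroxisomes shorten very long chains with enzymes of their own, and microsomal CYP4A enzymes oxidise the far end of the chain.

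Values are log2 expression values, and differences are Rab5 siRNA minus control siRNA unless another pair is named. Between 2 probe sets, levels are not comparable. The targeted transcripts were lower: Rab5a averaged 6.86 ± 0.402 with Rab5 siRNA and 8.67 ± 0.228 with control siRNA (SD, n = 4 each; adjusted p = 1.16e-05 by limma), and Rab5c averaged 7.21 ± 0.159 with Rab5 siRNA and 9.21 ± 0.155 with control siRNA (SD, n = 4 each; adjusted p = 1.64e-07). Rab5b, dim on this array, differed by -0.24 (adjusted p = 0.194). The liver label fits its defining marker albumin: Alb averaged 14.11 ± 0.0229 with Rab5 siRNA and 14.06 ± 0.0264 with control siRNA (SD, n = 4 each), a difference of 0.05 (adjusted p = 0.72). Arrays numbered 2 stood apart in the distance between the 3′ and 5′ probe sets of Gapdh, a sign of RNA quality. That distance was 2.67, 2.86 and 2.58 in the Rab5 siRNA, control siRNA and PBS arrays numbered 2, and 2.15 to 2.38 in the other arrays. Rab5 siRNA replicate 1 lay nearest, within its group, to the control siRNA and PBS arrays on the leading principal component (17.5, against 30.3 to 38.3 for its 3 companions).

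With Rab5 siRNA, the oxidation genes were mostly lower than with control siRNA. Of the 32 genes, 15 fell, 1 rose and 16 did not pass the threshold of an adjusted p under 0.05 (limma, Benjamini-Hochberg over all genes tested). Among all 12855 genes, 9.51% fell and 13.8% rose. These shares are also the background for the counts against control siRNA by role and by gene list given below. The median difference of the 32 genes was -0.36, against 0.00 for all genes, and single differences ran from -1.56 for Acaa1b to 1.57 for Acot2. Differences were below 0 for 28 genes and above 0 for 4. In 12 of the 32 genes, all 4 Rab5 siRNA values lay below all 4 control siRNA values, and in 1 all lay above, where 11.2% and 13.8% of all genes did so. Most falls were modest: of the 32 genes, 1 fell with a difference of -1 or lower, where 1.33% of all genes did. Counted among the genes that fell, this was 1 of 15, and 171 of 1222 over all genes. In bulk liver RNA, fewer cells of a type and less RNA per cell cannot be told apart.

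**Figure D1:**
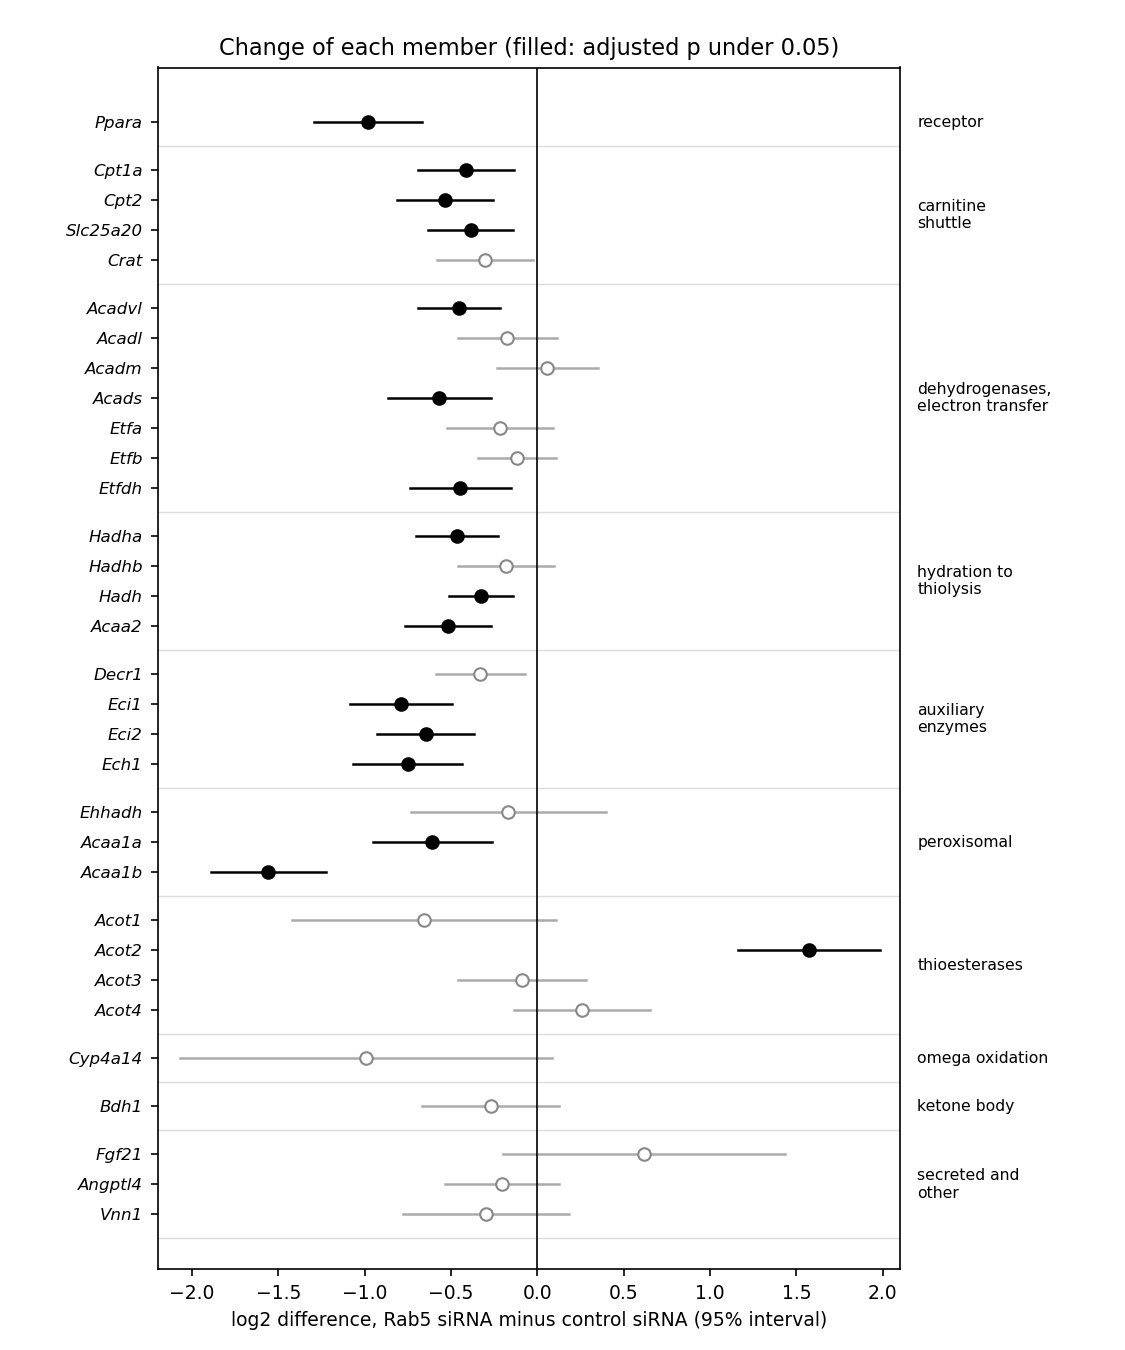
Difference of Rab5 siRNA minus control siRNA (x axis, log2) for the 32 measured genes, grouped down the page by role, with 95% intervals from limma; filled points passed an adjusted p of 0.05. The points of 28 genes lie left of 0, Acaa1b farthest left at -1.56, and Acot2 stands alone on the right at 1.57 among the filled points.

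The 7 genes Ppara, Cpt2, Eci1, Eci2, Ech1, Acaa1b and Acot2 kept their call in each of 22 alternative analyses. The other 9 called genes lost it in at least 1. Leaving out the 3 arrays numbered 2 had the broadest effect: 6 genes still fell and 1 still rose, while Cpt1a, Slc25a20, Acadvl, Acads, Etfdh, Hadha, Hadh, Acaa2 and Acaa1a kept their direction with adjusted p between 0.0535 and 0.226. Counted over single probe sets, 22 of the 50 kept probe sets of these genes fell and 1 rose, against 8.96% and 12.2% of all 24281 kept probe sets. In all 12 genes with several kept probe sets, the probe sets had differences of 1 sign.

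Ppara, the receptor itself, fell. Its values were 8.35, 7.82, 8.27 and 8.07 in Rab5 siRNA livers, against 9.26, 9.17, 9.02 and 8.97 in control siRNA livers and 9.37 and 8.78 in PBS livers. All 4 Rab5 siRNA values were below every value of the other groups. The group means were 8.13 ± 0.236 with Rab5 siRNA and 9.11 ± 0.13 with control siRNA (SD, n = 4 each), a difference of -0.98 (SE 0.146, 95% interval -1.29 to -0.67, adjusted p = 0.000299) that left 50.7% of the signal. All 3 probe sets of Ppara gave a fall, with differences of -1.09, -0.98 and -0.96.

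Among 18 partners and coregulators of PPARalpha, 16 were measured, of which 4 fell and 1 rose, beside 9.51% and 13.8% of all genes. The median difference was -0.11. The falls were of Lpin1 (-1.41, adjusted p = 0.0195), a phosphatidate phosphatase and coactivator, of the coactivators Ppargc1a (-1.06, adjusted p = 0.00208) and Ppargc1b (-0.77, adjusted p = 0.00136), and of Rxra (-0.42, adjusted p = 0.0329), the retinoid X receptor most abundant in liver. Ppargc1a was dim, averaging 4.18 with Rab5 siRNA and 5.25 with control siRNA, where probe sets were kept if above 4.33 in at least 2 arrays. The rise was of the related receptor Pparg (0.49, adjusted p = 0.00706). The other 11 did not pass, among them the coactivators Med1 (-0.09, adjusted p = 0.571) and Ncoa1 (-0.26, adjusted p = 0.0644).

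In the carnitine shuttle, 3 of 4 genes fell, with a median difference of -0.40 over the 4. Cpt2, the inner-membrane transferase that releases acyl-CoA into the matrix, had 9.13, 8.80, 9.04 and 9.22 in Rab5 siRNA livers, against 9.81, 9.51, 9.56 and 9.44 in control siRNA livers and 9.93 and 9.49 in PBS livers. The groups did not overlap. The difference was -0.54 (SE 0.129, adjusted p = 0.0088), leaving 69% of the signal.

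Cpt1a encodes the outer-membrane transferase, the controlled entry step of the shuttle. It had 10.21, 9.95, 10.05 and 10.18 in Rab5 siRNA livers, against 10.76, 10.56, 10.24 and 10.47 in control siRNA livers and 10.70 and 10.29 in PBS livers. The groups touched without overlapping, Rab5 siRNA replicate 1 lying just under control siRNA replicate 3, and the fall of -0.41 (SE 0.129, 95% interval -0.69 to -0.13, adjusted p = 0.0338) left 75.2%. The other Cpt1a probe sets differed by -0.15 (adjusted p = 0.552 over probe sets) and -0.10 (adjusted p = 0.762), so the call rests on 1 of 3. It was lost without Rab5 siRNA replicate 2 (adjusted p = 0.103) or 3 (0.0814), and without control siRNA replicate 1 (0.101), 2 (0.0771) or 4 (0.0563).

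Slc25a20, the carrier that swaps acylcarnitine for carnitine across the inner membrane, had 10.69, 10.37, 10.53 and 10.61 in Rab5 siRNA livers, against 11.05, 11.07, 10.95 and 10.67 in control siRNA livers and 11.23 and 11.04 in PBS livers. The groups overlapped, Rab5 siRNA replicate 1 lying just above control siRNA replicate 4. The fall was -0.39 (SE 0.114, adjusted p = 0.0259), and a further probe set gave -0.47 (adjusted p = 0.0153 over probe sets). The call was lost without Rab5 siRNA replicate 2 (adjusted p = 0.0893) or 3 (0.0619), or control siRNA replicate 1 (0.0713), 2 (0.0744) or 3 (0.0556). Crat, the carnitine transferase for short chains, ranged over 7.51 to 7.74 in Rab5 siRNA livers and 7.62 to 8.22 in control siRNA livers and missed the threshold (-0.30, adjusted p = 0.109). Without control siRNA replicate 4 it fell by 0.41 (adjusted p = 0.03).

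The promoters of these genes were searched for the DR1 element, since that is the sequence PPARalpha and its partner bind. The motif was AGGTCANAGGTCA, read on both strands, with at most 2 mismatches in its 12 fixed letters, in RefSeq windows of 300 bases (250 before the start and 50 after, build GRCm38.p6). A window was at hand for 26 of the 33 genes, and 3 of them (11.5%) held a match, Slc25a20, Acot4 and Etfa. Of all genes in the table, 1190 of 27025 (4.4%) did. The Slc25a20 window is shown because it holds a match on the gene's own strand, beginning 6 bases past the start, in a gene that fell. It lies at chr9:108661886-108662185 on the plus strand, and capitals mark the match:
Slc25a20: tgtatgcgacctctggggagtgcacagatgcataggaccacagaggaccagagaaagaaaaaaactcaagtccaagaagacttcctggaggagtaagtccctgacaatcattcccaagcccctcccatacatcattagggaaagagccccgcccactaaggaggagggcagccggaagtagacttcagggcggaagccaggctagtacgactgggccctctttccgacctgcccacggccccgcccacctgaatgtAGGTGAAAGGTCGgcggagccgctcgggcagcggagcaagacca
The matches of the other genes lay on the opposite strand, TTACCTTTGCCCT in Etfa, 77 bases before the start, and TGACCTTTGGCCG in Acot4, 13 bases before it. A match is a run of letters, and binding was not measured. Elements outside these windows were not searched.

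Acyl-CoA dehydrogenases take the first hydrogens from the chain and pass the electrons through electron transfer flavoprotein. Of 7 such genes, 3 fell, with a median of -0.22. Acads, the enzyme for short chains, had 9.19, 8.83, 8.93 and 8.56 in Rab5 siRNA livers, against 9.65, 9.46, 9.43 and 9.25 in control siRNA livers and 9.62 and 9.31 in PBS livers. The groups did not overlap, and the fall of -0.57 (SE 0.139, adjusted p = 0.00945) left 67.5%.

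Acadvl, which acts on very long chains at the inner membrane, had 10.38, 10.02, 10.14 and 10.05 in Rab5 siRNA livers, against 10.69, 10.61, 10.67 and 10.42 in control siRNA livers and 10.74 and 10.49 in PBS livers. The highest Rab5 siRNA value, replicate 1, lay just under the lowest control siRNA value, replicate 4. The difference was -0.45 (SE 0.111, adjusted p = 0.00937). Acadm, the enzyme for medium chains, had 10.26, 10.34, 10.10 and 10.70 in Rab5 siRNA livers, against 10.34, 10.32, 10.14 and 10.37 in control siRNA livers and 10.48 and 10.06 in PBS livers. The values of all groups overlapped, and the difference was 0.06 with a 95% interval of -0.24 to 0.35 (adjusted p = 0.806). Its sign rested on Rab5 siRNA replicate 4, without which it was -0.06. Acadl, for long chains, differed by -0.17 (95% interval -0.46 to 0.11, adjusted p = 0.382).

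Etfdh, the membrane enzyme that hands the electrons on to ubiquinone, had 8.78, 8.68, 8.55 and 9.10 in Rab5 siRNA livers, against 9.05, 9.13, 9.28 and 9.43 in control siRNA livers and 9.51 and 9.17 in PBS livers. Rab5 siRNA replicate 4 lay inside the control siRNA range. The fall of -0.45 (SE 0.135, adjusted p = 0.0292) was lost without Rab5 siRNA replicate 2 (adjusted p = 0.0824) or 3 (0.0933), or control siRNA replicate 3 (0.0685) or 4 (0.0813). The subunits of the flavoprotein itself, Etfa (-0.22, 95% interval -0.52 to 0.09, adjusted p = 0.305) and Etfb (-0.12, 95% interval -0.34 to 0.11, adjusted p = 0.455), missed the threshold.

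The steps from hydration to thiolysis were covered by 4 genes, of which 3 fell (median -0.40). Hadha and Hadhb encode the alpha and beta subunits of the mitochondrial trifunctional protein, which runs these steps for long chains. Hadha had 8.89, 8.55, 8.68 and 8.67 in Rab5 siRNA livers, against 9.24, 9.14, 9.23 and 9.04 in control siRNA livers and 9.35 and 8.99 in PBS livers. The Rab5 siRNA values were all lower, and the fall of -0.47 (SE 0.11, adjusted p = 0.00767) left 72.4%.

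Hadhb had 9.72, 9.68, 9.66 and 10.10 in Rab5 siRNA livers, against 9.96, 10.24, 9.97 and 9.72 in control siRNA livers and 10.16 and 10.06 in PBS livers. Rab5 siRNA replicate 4 lay well above its group and control siRNA replicate 4 below its own, and the difference of -0.18 (95% interval -0.46 to 0.10, adjusted p = 0.351) missed the threshold. Whether the subunits differ in response was not tested, and their intervals overlap. The pair is transcribed away from a shared start region on chromosome 5, and their RefSeq windows have 228 bases in common. The window of Hadhb is shown for this reason, at chr5:30155003-30155302 on the plus strand of GRCm38.p6. Capitals mark the bases that also lie in the Hadha window, and neither window held the DR1 motif:
Hadhb: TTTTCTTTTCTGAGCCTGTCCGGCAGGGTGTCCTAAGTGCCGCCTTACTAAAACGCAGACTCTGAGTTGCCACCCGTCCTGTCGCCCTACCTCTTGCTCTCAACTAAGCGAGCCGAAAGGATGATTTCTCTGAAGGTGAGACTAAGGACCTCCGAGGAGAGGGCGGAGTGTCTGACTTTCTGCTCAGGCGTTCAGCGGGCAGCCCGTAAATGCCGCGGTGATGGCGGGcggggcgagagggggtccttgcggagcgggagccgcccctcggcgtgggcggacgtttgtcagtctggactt

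Hadh and Acaa2 act on shorter chains. Hadh, the hydroxyacyl-CoA dehydrogenase of the matrix, had 11.93, 12.07, 12.02 and 11.997 in Rab5 siRNA livers, against 12.33, 12.41, 12.31 and 12.27 in control siRNA livers and 12.47 and 12.33 in PBS livers. The groups were apart, with a fall of -0.33 (SE 0.0868, adjusted p = 0.0149), and the other probe sets gave -0.31 (adjusted p = 0.0666 over probe sets) and -0.57 (adjusted p = 0.00117). Acaa2, the thiolase that releases acetyl-CoA, had 11.40, 10.97, 11.02 and 10.96 in Rab5 siRNA livers, against 11.67, 11.56, 11.64 and 11.56 in control siRNA livers and 11.67 and 11.36 in PBS livers. Rab5 siRNA replicate 1 came closest to the control siRNA livers without reaching them, and the fall was -0.52 (SE 0.117, adjusted p = 0.00589). With the most variable probe set of Acaa2 in place of the brightest, the adjusted p was 0.0638.

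Double bonds in unsaturated fatty acids need auxiliary enzymes that shift or reduce them before the cycle can go on. Of the role groups with several measured genes, this one had the lowest median, -0.70, and 3 of its 4 genes fell. Eci1, an enoyl-CoA delta isomerase of mitochondria, had 9.51, 9.17, 9.22 and 9.19 in Rab5 siRNA livers, against 10.23, 9.92, 10.08 and 10.02 in control siRNA livers and 10.43 and 9.80 in PBS livers. All Rab5 siRNA values lay below the others, and 57.9% of the signal was left (-0.79, SE 0.137, adjusted p = 0.000989).

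Ech1, a dienoyl-CoA isomerase, had 10.41, 9.73, 9.81 and 10.05 in Rab5 siRNA livers, against 10.89, 10.75, 10.74 and 10.63 in control siRNA livers and 11.02 and 10.62 in PBS livers. Rab5 siRNA replicate 1 was the highest of its group here too, but below every control siRNA liver, with a fall of -0.75 (SE 0.147, adjusted p = 0.00227). Eci2, an isomerase found in peroxisomes and mitochondria, had 9.70, 9.12, 9.32 and 9.51 in Rab5 siRNA livers, against 10.16, 10.02, 10.12 and 9.94 in control siRNA livers and 10.35 and 9.99 in PBS livers. The groups did not overlap, and the fall was -0.65 (SE 0.131, adjusted p = 0.00289).

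Decr1, the dienoyl-CoA reductase of mitochondria, had 9.28, 9.30, 9.20 and 9.68 in Rab5 siRNA livers, against 9.66, 9.79, 9.66 and 9.67 in control siRNA livers. Replicates 1, 2 and 3 with Rab5 siRNA were lower and replicate 4 lay inside the control siRNA range, and the difference of -0.33 (SE 0.119, adjusted p = 0.0625) missed the threshold. Without Rab5 siRNA replicate 4 it was -0.44 (adjusted p = 0.011). A dimmer Decr1 probe set had 7.28, 7.15, 7.34 and 7.62 with Rab5 siRNA, against 8.11, 8.01, 7.94 and 7.83 with control siRNA. There the groups did not overlap and the fall passed (-0.62, adjusted p = 0.00388 over probe sets).

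In peroxisomes, 2 of 3 genes fell, with a median of -0.61. Acaa1b, a peroxisomal thiolase that PPARalpha agonists are known to induce in rodents, had the largest fall of all 32 genes. Its values were 11.58, 11.23, 11.10 and 11.23 in Rab5 siRNA livers, against 12.997, 12.88, 12.81 and 12.69 in control siRNA livers and 13.28 and 12.52 in PBS livers. Every Rab5 siRNA liver was far below every other liver. Means were 11.29 ± 0.205 with Rab5 siRNA and 12.84 ± 0.13 with control siRNA (SD, n = 4 each), a fall of -1.56 (SE 0.155, 95% interval -1.89 to -1.22, adjusted p = 1.38e-05) that left 34%.

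Acaa1a, the companion thiolase on the same chromosome, had 7.39, 6.97, 7.53 and 7.17 in Rab5 siRNA livers, against 8.06, 7.98, 8.06 and 7.40 in control siRNA livers and 8.55 and 8.39 in PBS livers. Control siRNA replicate 4 lay within the Rab5 siRNA range, and the fall was -0.61 (SE 0.161, adjusted p = 0.0147). The adjusted p without Rab5 siRNA replicate 2 was 0.053. Another 2 probe sets are annotated to both thiolases, and both fell, with differences of -1.83 (adjusted p = 7.64e-05 over probe sets) and -1.49 (adjusted p = 6.38e-05). The 2 genes are close copies, and how far each probe set reads the other was not tested. Ehhadh, the peroxisomal bifunctional enzyme, had 9.91, 8.86, 8.96 and 9.68 in Rab5 siRNA livers, against 9.58, 9.60, 9.40 and 9.49 in control siRNA livers and 10.32 and 9.06 in PBS livers. The Rab5 siRNA livers lay on both sides of the control siRNA livers, replicates 1 and 4 above and replicates 2 and 3 below, and the difference was -0.17 (95% interval -0.73 to 0.40, adjusted p = 0.696).

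Acyl-CoA thioesterases cut acyl-CoA into free fatty acid and CoA. This role group held the only rise among the 32 genes, in 1 of its 4 genes, and its median was 0.08 with 0 falls. Acot2, the mitochondrial enzyme, had 9.43, 8.57, 9.03 and 9.58 in Rab5 siRNA livers, against 7.78, 7.62, 7.52 and 7.39 in control siRNA livers and 8.07 and 7.64 in PBS livers. All Rab5 siRNA values were higher than all others. Means were 9.15 ± 0.456 with Rab5 siRNA and 7.58 ± 0.162 with control siRNA (SD, n = 4 each), a rise of 1.57 (SE 0.191, 95% interval 1.16 to 1.99, adjusted p = 6.40e-05), or 2.98-fold.

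The size of that rise depended on the probe set. A dim second probe set of Acot2 had 4.89, 4.28, 4.83 and 5.55 with Rab5 siRNA, against 4.59, 4.45, 4.37 and 4.08 with control siRNA (0.51, adjusted p = 0.103 over probe sets), and the mean of both gave 1.04 (adjusted p = 0.00207). A probe set annotated to both Acot2 and Acot1 had 6.88, 6.14, 6.17 and 6.94 with Rab5 siRNA, against 7.46, 6.66, 6.89 and 6.67 with control siRNA (-0.39, adjusted p = 0.4). Its highest siRNA value was that of control siRNA replicate 1, as for Acot1.

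Acot1, the cytosolic enzyme and a known PPARalpha target, had 7.19, 6.21, 6.42 and 7.15 in Rab5 siRNA livers, against 8.21, 7.22, 7.40 and 6.77 in control siRNA livers and 8.43 and 6.82 in PBS livers. The groups overlapped widely, and the difference of -0.66 (SE 0.355, 95% interval -1.42 to 0.11) missed the threshold (adjusted p = 0.209). With the replicate number as a block, its adjusted p was 0.0449. Acot3, a peroxisomal thioesterase, differed by -0.09 (95% interval -0.46 to 0.28, adjusted p = 0.753). Acot4, also peroxisomal and dim on the array, differed by 0.26 (95% interval -0.14 to 0.65, adjusted p = 0.345). A dimmer Acot4 probe set, dropped by the filter at 4.33 and so outside the counts, differed by 0.55. Its adjusted p was 0.00628 in a limma fit that took in dropped probe sets. It had 4.35, 4.13, 4.32 and 4.31 with Rab5 siRNA, against 3.68, 3.60, 4.07 and 3.54 with control siRNA. The PBS values, 4.16 and 4.05, overlapped those with Rab5 siRNA. Whether this dim signal stands above background was not tested.

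Acot2, Acot1, Acot4 and Acot3 are consecutive protein-coding genes on chromosome 12 in the RefSeq table. The windows of Acot2 (chr12:83987611-83987910, plus strand, GRCm38.p6) and of its neighbour Acot1 (chr12:84009252-84009551, plus strand) are shown because Acot2 rose while the difference of Acot1, next to it, was below 0 and missed the threshold. Neither held the DR1 motif, so no letters are in capitals:
Acot2: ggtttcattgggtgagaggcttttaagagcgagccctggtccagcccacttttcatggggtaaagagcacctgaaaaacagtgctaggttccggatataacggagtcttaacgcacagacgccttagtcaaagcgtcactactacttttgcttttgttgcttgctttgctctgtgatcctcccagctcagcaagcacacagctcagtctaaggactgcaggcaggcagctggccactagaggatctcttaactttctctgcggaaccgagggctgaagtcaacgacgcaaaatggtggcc
Acot1: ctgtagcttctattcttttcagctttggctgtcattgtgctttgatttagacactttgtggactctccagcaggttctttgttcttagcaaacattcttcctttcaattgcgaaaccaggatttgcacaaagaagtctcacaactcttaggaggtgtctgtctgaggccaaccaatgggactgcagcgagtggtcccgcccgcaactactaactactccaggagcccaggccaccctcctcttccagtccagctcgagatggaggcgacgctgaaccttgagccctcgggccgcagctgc

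**Figure D2:**
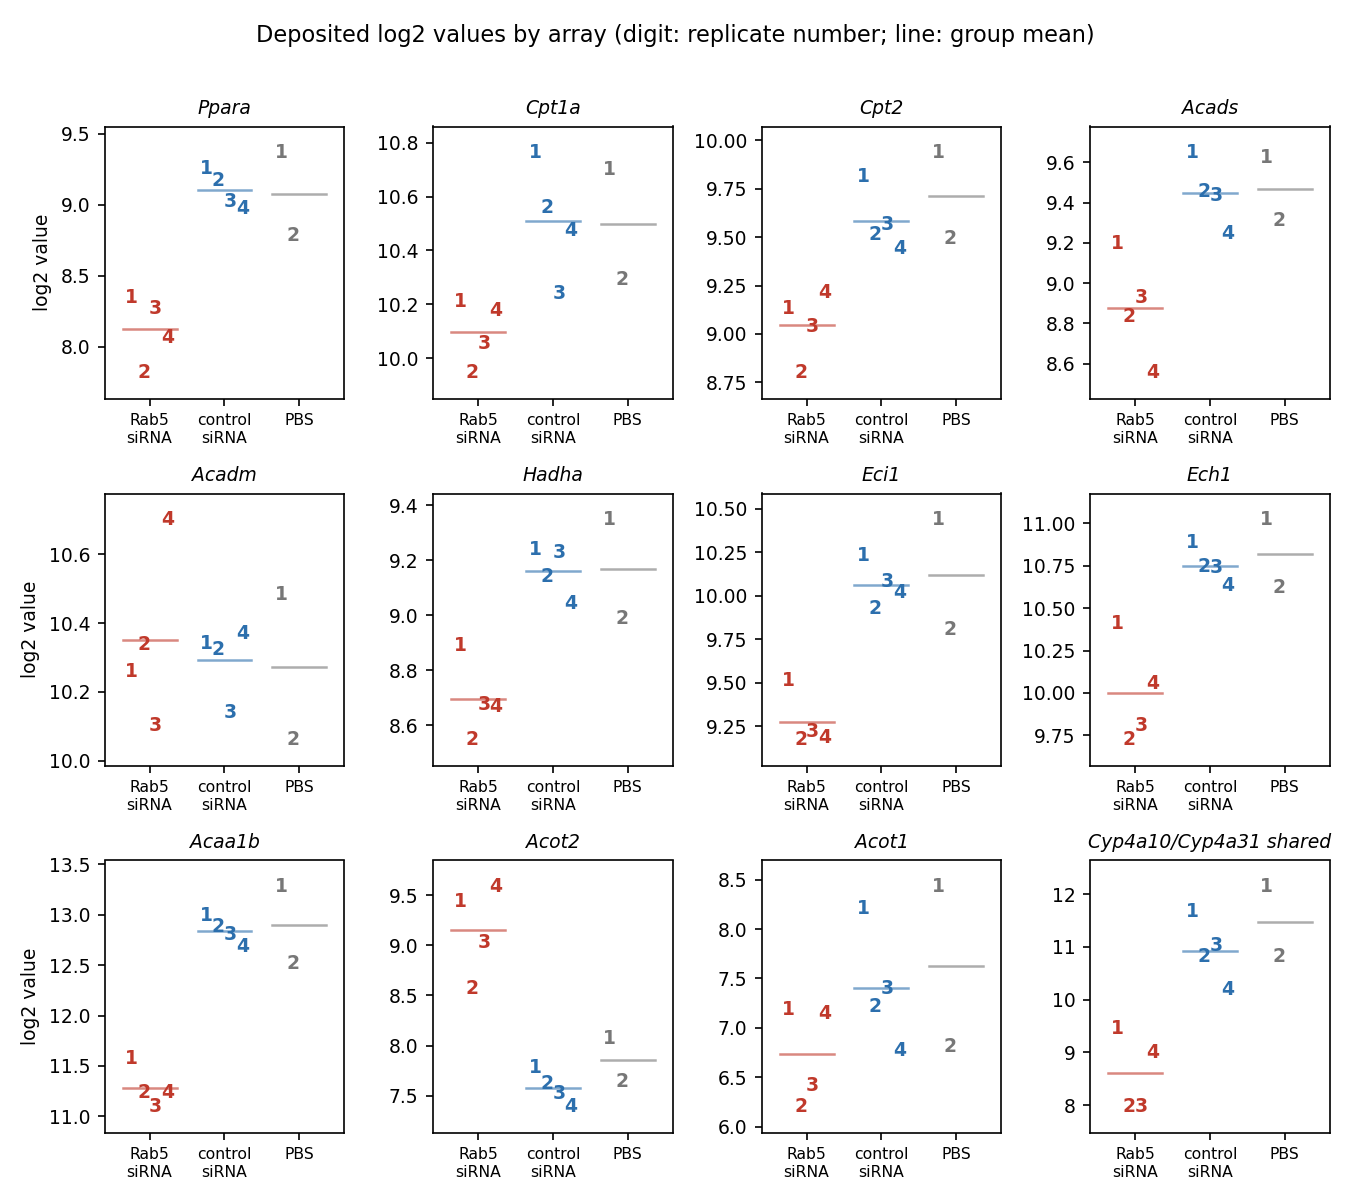
Deposited log2 values (y axis) of 12 signals in each array, by group (Rab5 siRNA, control siRNA, PBS); each digit is an array drawn as its replicate number and each line is a group mean. Ppara, Cpt2, Acads, Hadha, Eci1, Ech1 and Acaa1b show Rab5 siRNA arrays below all control siRNA arrays, Acot2 shows them above, and Acadm and Acot1 overlap.

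Omega oxidation by CYP4A enzymes starts at the far end of the chain, and these genes are classical PPARalpha targets in rodents. The probe set annotated to both Cyp4a10 and Cyp4a31 had 9.46, 7.97, 7.98 and 8.99 in Rab5 siRNA livers, against 11.67, 10.82, 11.03 and 10.19 in control siRNA livers and 12.14 and 10.82 in PBS livers. Every Rab5 siRNA liver was below every other liver. The difference was -2.33 (SE 0.382, adjusted p = 0.000728 over probe sets), which left 19.9% of the signal. A probe set annotated to Cyp4a31 alone differed by 0.61 (adjusted p = 0.0806), and the shared signal was not divided between the genes.

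Cyp4a14 varied most of all 32 genes. It had 10.05, 8.19, 7.70 and 9.09 in Rab5 siRNA livers, against 10.75, 9.33, 10.16 and 8.76 in control siRNA livers and 11.44 and 10.17 in PBS livers. The siRNA groups overlapped, Rab5 siRNA replicate 1 standing high in its group and control siRNA replicate 4 low in its own. The difference of -0.99 had an SE of 0.499 and missed the threshold (adjusted p = 0.176). With the replicate number as a block its adjusted p was 0.0438, and without Rab5 siRNA replicate 1 the difference was -1.42 (adjusted p = 0.0309).

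Bdh1, which reduces acetoacetate to the ketone body 3-hydroxybutyrate, had 9.76, 8.88, 9.05 and 9.02 in Rab5 siRNA livers, against 9.35, 9.59, 9.49 and 9.35 in control siRNA livers and 9.79 and 9.15 in PBS livers. Rab5 siRNA replicates 2, 3 and 4 lay below the control siRNA livers and replicate 1 above them, and the difference of -0.27 (95% interval -0.67 to 0.13, adjusted p = 0.324) missed the threshold. Without that replicate it was -0.47 (adjusted p = 0.0261). A dimmer Bdh1 probe set had 6.15, 5.43, 5.93 and 5.97 with Rab5 siRNA, against 6.32, 6.22, 6.54 and 6.57 with control siRNA. There the siRNA groups did not overlap, replicate 1 included, and the difference of -0.54 missed the threshold (adjusted p = 0.103 over probe sets).

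Around Bdh1, a list of genes of ketone body formation, use and transport had 5 measured members, and all 5 passed, 3 up and 2 down. Slc16a1 (1.08, adjusted p = 0.000157) and Slc16a6 (0.97, adjusted p = 0.00476), monocarboxylate transporters, rose, and so did Oxct1 (0.98, adjusted p = 0.00882), the enzyme with which tissues other than hepatocytes use ketone bodies. Acat1 (-0.56, adjusted p = 0.00407), a mitochondrial acetoacetyl-CoA thiolase, and Bdh2 (-0.67, adjusted p = 0.00201), a cytosolic hydroxybutyrate dehydrogenase, fell. Oxct1 was dim, averaging 5.85 with Rab5 siRNA, 4.87 with control siRNA and 4.23 with PBS.

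Of the 3 remaining genes, Fgf21, Angptl4 and Vnn1, 0 passed. Fgf21, a hormone that liver releases in fasting, had 7.03, 5.15, 6.78 and 6.30 in Rab5 siRNA livers, against 6.29, 5.39, 6.08 and 5.03 in control siRNA livers and 6.44 and 5.47 in PBS livers. The groups overlapped, with a difference of 0.62 (95% interval -0.20 to 1.44, adjusted p = 0.269). Same-numbered Rab5 siRNA and control siRNA livers differed by 0.74, -0.24, 0.70 and 1.27, the adjusted p with the replicate number as a block was 0.0366, and without Rab5 siRNA replicate 2 the difference was 1.01 (adjusted p = 0.0382).

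Angptl4, a secreted inhibitor of lipoprotein lipase, had 9.62, 9.15, 9.56 and 9.32 in Rab5 siRNA livers, against 10.03, 9.36, 9.50 and 9.57 in control siRNA livers and 9.97 and 9.62 in PBS livers. The values overlapped (-0.20, 95% interval -0.53 to 0.13, adjusted p = 0.378). Vnn1, a pantetheinase that recycles pantothenate for CoA, ranged over 8.65 to 9.34 in Rab5 siRNA livers and 8.71 to 9.44 in control siRNA livers (-0.30, 95% interval -0.78 to 0.18, adjusted p = 0.373).

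**Figure D3:**
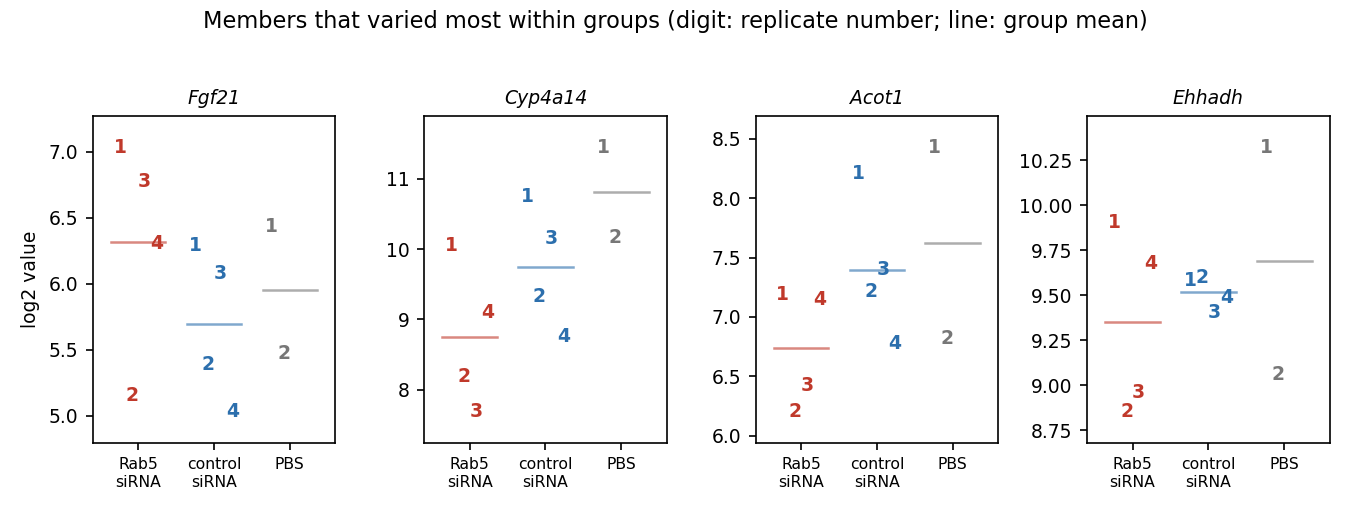
Deposited log2 values (y axis) by array for the 4 genes with the largest standard errors, Fgf21, Cyp4a14, Acot1 and Ehhadh, by group (Rab5 siRNA, control siRNA, PBS); each digit is an array drawn as its replicate number and each line is a group mean. Cyp4a14 spans 7.70 to 10.05 within the Rab5 siRNA group alone, and in all 4 panels PBS replicate 1 lies above PBS replicate 2.

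Control siRNA against PBS asks what the nanoparticles with an inert RNA did by themselves. By limma 0 of the 32 genes passed (0% of all genes), and 2 had an unadjusted p under 0.05, where 4.31% of all genes did. The median difference, control siRNA minus PBS, was -0.07, against -0.01 for all genes. Differences were below 0 for 25 of the 32 genes and above 0 for 7, where 6730 of all 12855 genes were below 0. The 2 genes with an unadjusted p under 0.05 were Acaa1a (-0.60, adjusted p = 0.99) and Acot3 (-0.73, adjusted p = 0.83). Each had all control siRNA values below both PBS values, as 6.42% of all genes had. In 0 of the 32 genes were all control siRNA values above both PBS values, as in 6.57% of all genes. With 2 PBS arrays, the intervals were wide, for example -0.33 to 0.35 for control siRNA minus PBS in Cpt1a.

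In Rab5 siRNA against PBS, 15 of the 32 genes fell and 1 rose, beside 7.59% and 9.53% of all genes, with a median of -0.41. All 4 Rab5 siRNA values lay below both PBS values in 17 of the 32 genes (18% of all genes) and above them in 1 (19.8%). This comparison shares its Rab5 siRNA arrays with the one above, so the results are not independent. Of the 15, 13 also fell against control siRNA. Acaa1b differed from PBS by -1.61 (adjusted p = 7.41e-05), Ppara by -0.95 (adjusted p = 0.00229), Eci1 by -0.85 (adjusted p = 0.00336) and Acot2 by 1.29 (adjusted p = 0.00178). The genes that fell against PBS alone were Cyp4a14 (-2.05, adjusted p = 0.0347) and Acot3 (-0.82, adjusted p = 0.0161), and those against control siRNA alone were Cpt1a (-0.40 from PBS, adjusted p = 0.107) and Acaa2 (-0.42 from PBS, adjusted p = 0.0589). Whether the 2 differences of a gene differ was not tested. Without PBS replicate 1, 3 genes passed, and without PBS replicate 2, 13 passed.

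Arrays of a group also differed among themselves across these genes. PBS replicate 1 was above PBS replicate 2 in 32 of 32 genes, where 53.3% of all genes were. Rab5 siRNA replicate 1 was the highest of its group in 59.4% of the 32 genes and control siRNA replicate 1 in 62.5%, against 30.8% and 24.1% of all genes. Rab5 siRNA replicate 2 was the lowest of its group in 56.2% (all genes 17.8%) and control siRNA replicate 4 in 59.4% (all genes 23.6%). As a mean over the 32 genes, set to 0 at the control siRNA arrays, the Rab5 siRNA arrays stood at -0.13, -0.57, -0.44 and -0.23, the control siRNA arrays at 0.18, -0.02, 0.03 and -0.18, and the PBS arrays at 0.38 and -0.11. In this mean, Rab5 siRNA replicate 1 lay above control siRNA replicate 4.

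Genes next to these in the same pathways moved in both directions. Of 31 further acyl-CoA oxidation enzymes, 28 were measured, and 14 fell and 3 rose, with a median of -0.32. The largest falls were of Nudt7 (-1.79, adjusted p = 4.29e-07), a peroxisomal hydrolase of CoA, and Pecr (-1.25, adjusted p = 3.07e-06), a peroxisomal enoyl-CoA reductase. Branched-chain enzymes were among the falls too, such as Acad8 (-0.81, adjusted p = 0.000103) and Ivd (-0.63, adjusted p = 0.00102), as were Phyh (-0.84, adjusted p = 0.000363) and Hacl1 (-0.70, adjusted p = 0.00276), enzymes of peroxisomal alpha oxidation. The rises were of the thioesterase Acot9 (1.86, adjusted p = 6.62e-05) and the acyl-CoA synthetases Acsl3 (1.12, adjusted p = 0.00119) and Acsl4 (0.79, adjusted p = 0.00316).

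Of 37 other genes that PPARalpha is known to control, 29 were measured, 11 fell and 3 rose, and the median was -0.29. The largest difference was a rise, of Pdk4 (2.78, adjusted p = 1.89e-06), the kinase that shuts off pyruvate dehydrogenase. Retsat (-1.74, adjusted p = 0.000192), a retinol saturase, Cyp4a12a (-1.41, adjusted p = 0.000157), a fatty acid hydroxylase, and Fabp1 (-0.41, adjusted p = 0.0276), the liver fatty acid binding protein, fell. The lipid droplet protein Plin2 differed by 0.18 (adjusted p = 0.36).

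Malonyl-CoA blocks CPT1A, and 7 of 8 genes that set its level were measured. Of these, 2 fell and 1 rose, beside 9.51% and 13.8% of all genes, with a median of -0.04. Acacb (-1.20, adjusted p = 0.000591), the carboxylase that makes malonyl-CoA at mitochondria, and Mlycd (-0.50, adjusted p = 0.00878), the decarboxylase that removes it and also 1 of the 37 genes above, both fell. Prkab1 (0.39, adjusted p = 0.0148), a subunit of the AMP-activated kinase that inhibits the carboxylases, rose.

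**Figure D4:**
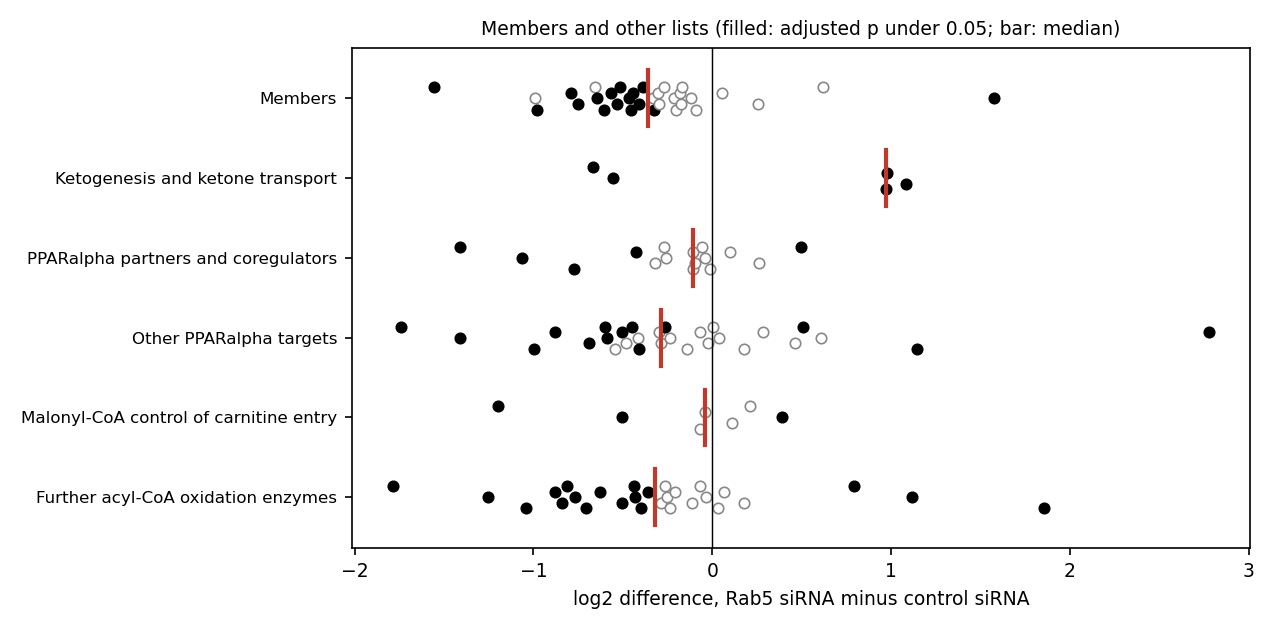
Difference of Rab5 siRNA minus control siRNA (axis in log2) for each measured gene of the 32 and of 5 neighbouring lists; filled points passed an adjusted p of 0.05 and a red bar marks each list's median. The 32 genes and the further acyl-CoA enzymes have medians of -0.36 and -0.32, while the ketone list has its median at 0.97 with genes on both sides of 0.

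Some markers of other cell types also differed between the groups. Of 13 Kupffer cell and macrophage markers, 8 rose and 0 fell, with a median of 0.63, and their mean in an array lay at 0.13 to 0.73 in Rab5 siRNA livers, -0.22 to 0.13 in control siRNA livers and -0.15 to -0.02 in PBS livers. Cd68 (1.08, adjusted p = 2.02e-05) and Cd5l (1.01, adjusted p = 6.00e-05) were among those that rose, and Adgre1 (0.25, adjusted p = 0.347) and Clec4f (0.30, adjusted p = 0.0706) missed the threshold. Differences were above 0 for 11 of the 13 and below 0 for 2, Csf1r (-0.13, adjusted p = 0.422) and Lyz2 (-0.12, adjusted p = 0.677). Stellate and fibroblast markers rose in 4 of 10 cases (Col4a1, Acta2, Vim and Reln), and 3 of 8 sinusoidal endothelial markers fell, where 13.8% of all genes rose and 9.51% fell. Stellate and fibroblast differences were below 0 for 2, Dcn (-0.17, adjusted p = 0.208) and Lrat (-0.07, adjusted p = 0.781). In Rab5 siRNA against PBS, 0 of the 8 endothelial markers passed, and their median was 0.00. For control siRNA minus PBS, differences were above 0 for 7 of the 8, where 6125 of all 12855 genes were, with a median of 0.18. In shorter lists, 1 of 3 measured cholangiocyte markers (Sox9, 0.45, adjusted p = 0.0298) and 1 of 5 neutrophil and monocyte markers (Plac8, 0.79, adjusted p = 0.00924) rose. Of 5 measured lymphocyte markers, 1 fell (Ighm, -1.38, adjusted p = 4.94e-05), and of 4 muscle markers, 1 rose.

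Of 8 measured hepatocyte markers, 3 fell, Tat (-1.37, adjusted p = 6.38e-06), Cyp2e1 (-0.95, adjusted p = 0.000362) and Cps1 (-0.35, adjusted p = 0.027), and 0 rose. Differences were below 0 for 6 of the 8 and above 0 for 2, Apoa1 (0.18, adjusted p = 0.14) and Alb, with a median of -0.17. Alb, Apoa1 and Ttr averaged 13.89 to 14.11 in the siRNA groups, near the highest values of the arrays, 14.43 to 14.48. Whether differences are compressed at that height was not tested. The mean of the 8 lay at -0.45 to -0.31 in Rab5 siRNA livers, -0.07 to 0.09 in control siRNA livers and -0.05 to 0.07 in PBS livers. Hnf4a, a transcription factor of hepatocytes, differed by -0.17 (adjusted p = 0.253). Their part in the falls of the oxidation genes was not tested. In Rab5 siRNA replicates 1 to 4, the macrophage means were 0.13, 0.68, 0.71 and 0.73. The means of the 32 oxidation genes in the same arrays were -0.13, -0.57, -0.44 and -0.23. Replicate 1 was thus lowest in the first and highest in the second, but replicate 4, highest in the first, was not lowest in the second. A relation between the 2 means was not tested. Of 8 fat cell markers 2 were measured and 0 passed.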

How the data were processed

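The deposited table holds log2 expression values of 45101 probe sets for 10 arrays, made by the authors with RMA (robust multi-array average), Affymetrix Expression Console and Partek 6.6, per the submitters' processing notes, which give no order. RMA subtracts background, gives all arrays 1 distribution (medians here 4.29 to 4.37) and sums up probes on the log2 scale. A shift of all transcripts together would not be seen, and differences of dim probe sets are compressed. Arrays have no read depth, so their number limits the precision. The platform annotation gave 34945 probe sets 1 symbol and 932 several, 9160 were unnamed and 64 were controls.

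Probe sets above the median of the table (4.33) in at least 2 arrays were kept (24281), and the brightest stood for its gene. A mean per group was fitted over all 10 arrays with limma 3.58.1 in R 4.3.3 (lmFit and eBayes), and p-values were adjusted over 12855 genes by the method of Benjamini and Hochberg. Intervals are 95% and unadjusted. The fit was tested on simulated data. Same-numbered Rab5 siRNA and control siRNA arrays deviated from their group means together (r = 0.391, 0.149, 0.186 and 0.312 across genes), all above 0.1. A fit with the replicate number as a block, which pairs the arrays by number, is among the alternatives. The main fit had no block, so its counts, intervals and p-values do not use this pairing. The labels do not state this pairing, and the data bear it out only in part: arrays of different numbers reached r = 0.199 (Rab5 siRNA replicate 2 with control siRNA replicate 4) and 0.183 (4 with 2), and over the 32 genes the same-numbered pairs had r = 0.622, 0.506, -0.103 and -0.0786. Blocked values stand beside the 3 genes whose call the block changes.

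The 33 genes, the neighbouring lists and the cell markers were chosen with earlier results of these data known. Values of every array were given by rule for called genes with a log2 difference of at least 1, for the 2 largest called differences per role and for 10 set genes, and up to 3 called genes per neighbouring list were named by size. Further genes were added after their values were seen. A planned comparison of protein sequences was not run. Alternatives were other filters, probe set choices, scalings, weights, fits and arrays left out.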

Additional observations from a re-analysis of the deposited data

Results flagged for a closer look

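Within the 4 arrays of an siRNA group, 6 of 64 sets of values held an array far from the other 3 by Dixon's gap ratio. Chance gives about 1 in 20 such sets. With Rab5 siRNA, replicate 1 stood high for Acaa2 (11.40, nearest array 11.02) and for Eci1 (9.51, nearest 9.22), and replicate 4 stood high for Hadhb (10.10, nearest 9.72). With control siRNA, replicate 4 stood low for Acaa1a (7.40, nearest 7.98) and for Vnn1 (8.71, nearest 9.34), and replicate 2 stood high for Decr1 (9.79, nearest 9.67). Rab5 siRNA replicate 1 is the array of its group nearest to the control siRNA arrays on the leading principal component, and without it 17 of the 32 genes fell and 1 rose.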

How the results depend on the processing

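Over 22 alternatives, 653 of 703 results for single genes kept direction and side of the threshold, 29 called ones no longer passed, 16 came to pass and 5 changed sign. Signs turned for 3 genes, none of them called against control siRNA: Acadm (-0.0599 without Rab5 siRNA replicate 4, and up to 0.139 with another array left out), Ehhadh (0.0243 without the arrays numbered 2) and Acot3 (0.0225 and 0.0232 without control siRNA replicate 1 or 3, down to -0.242 with another array left out, and 0.0737 without the siRNA arrays numbered 1). Without the arrays numbered 2, 6 of the 32 genes fell in place of 15, 1549 genes passed in place of 2993, and in Rab5 siRNA against PBS 802 genes in place of 2201 and 8 of the 32 in place of 16. Fewer arrays enter that fit, and the cause was not tested further. With the replicate number as a block, 17 of the 32 fell, 2 rose and 3712 genes passed, with 1 gene called for control siRNA against PBS. The block changed no other call among the 32 genes than those of Acot1, Cyp4a14 and Fgf21.

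Leaving out 1 array at a time gave 11 to 17 falls and 1 to 2 rises among the 32, and 2222 to 3420 genes called. For Rab5 siRNA against PBS it gave 1113 to 2629 genes and 3 to 17 of the 32, the lowest without PBS replicate 1, where the lone PBS array is taken to vary like the other groups. Without PBS replicate 2, 1294 genes passed. For control siRNA against PBS it gave 0 to 18 genes, 18 of them without control siRNA replicate 4. That comparison also had 2 genes after a new quantile normalization, 3 with array weights and 5 without the siRNA arrays numbered 1. The median of all genes moved to 0.03 with centred arrays and to -0.02 with quantile normalization. No detection calls were used, so signal over background is unknown for dim genes such as Acot4.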
